A study of Mus musculus with 2 samples.

Results

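Thymic epithelial genes were followed through DNase I accessibility maps of whole thymus, with sites at their start sites kept apart from sites farther away. The set was given by name and held 10 of the 21938 protein-coding genes of the GENCODE M21 annotation: Foxn1, Psmb11, Prss16, Ccl25, Aire, Fezf2, Cldn4, Krt5, Krt8 and Epcam. The tissue was thymus of adult female B6CASTF1/J mice, hybrids of the B6 and CAST strains, at an age of 18 to 20 months. There was 1 group, with no treatment, no younger age and no sorted cells, and it had 2 libraries, here replicate 1 and replicate 2 as in the labels. Both trace to 1 donor record through biosample records of their own, and since no source says that different animals were used, the spread between them may be technical. With 2 libraries of 1 group there is no contrast to test, so all values are descriptions, given per library or as mean ± SD (n = 2). The genes were chosen with earlier results of these data known, so comparisons with all genes are descriptions as well.

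DNase-seq reads the ends left by DNase I in nuclei, which collect where DNA is accessible. Thymic epithelial cells form the stroma in which T cells mature. Those of the cortex support the selection of immature thymocytes on self peptides, and those of the medulla display antigens of other tissues, so that self-reactive cells are removed. Epithelial cells are a small minority in the thymus, where most cells are thymocytes. In such bulk tissue, fewer cells of a type and less accessible DNA per cell cannot be told apart. Nor does a peak tell which cells of the tissue it came from.

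Each library came with a shorter and a longer peak list, and the shorter one was used unless the longer is named. Replicate 1 had 50648 peaks and replicate 2 had 49872, with a median signal of 1.66 and 1.43 in the deposited units, whose scale is not stated. A peak was called a promoter peak of a gene if its centre lay within 1 kb of any annotated start of that gene. It was called a neighbour promoter peak if it lay within 1 kb of a start of another protein-coding gene only, and distal otherwise. The window of a gene was its body and 50 kb on each side, and distances run from the start of its main transcript, called the main start. The tissue label was checked on 14 thymocyte genes, of which 13 had a promoter peak in both libraries and Cd4 had one in replicate 2 only. Promoter peaks in both libraries were present for 1 of 6 B cell genes, 0 of 6 myeloid genes, 2 of 6 fibroblast genes and 3 of 6 endothelial genes. Over all protein-coding genes this share was 53.4%. The thymocyte share of 92.9% was above it, the endothelial share of 50% was near it, and the other shares were below it.

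Across the windows of the epithelial genes, replicate 1 had 79 peaks, of which 10 were promoter peaks, 25 were neighbour promoter peaks and 44 were distal. Replicate 2 had 78, of which 8, 25 and 45 fell in those classes. The counts of distal and own promoter sites are not comparable. A window reaches 50 kb beyond the gene, and promoter peaks lie within 1 kb of a start. Over the whole lists, 30866 of 50648 peaks were distal in replicate 1 and 30209 of 49872 in replicate 2. A promoter peak was present in both libraries for 5 of the 10 genes, Prss16, Aire, Ccl25, Cldn4 and Epcam, against 53.4% of all protein-coding genes. The longer lists gave the same 5 genes, against 57.8% of all genes. A distal peak was present in both libraries for 8 of the 10, all but Fezf2 and Krt5, against 66.6% of all genes. At the promoters, then, the share of epithelial genes with a site was near that of genes in general.

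**Figure D1:**
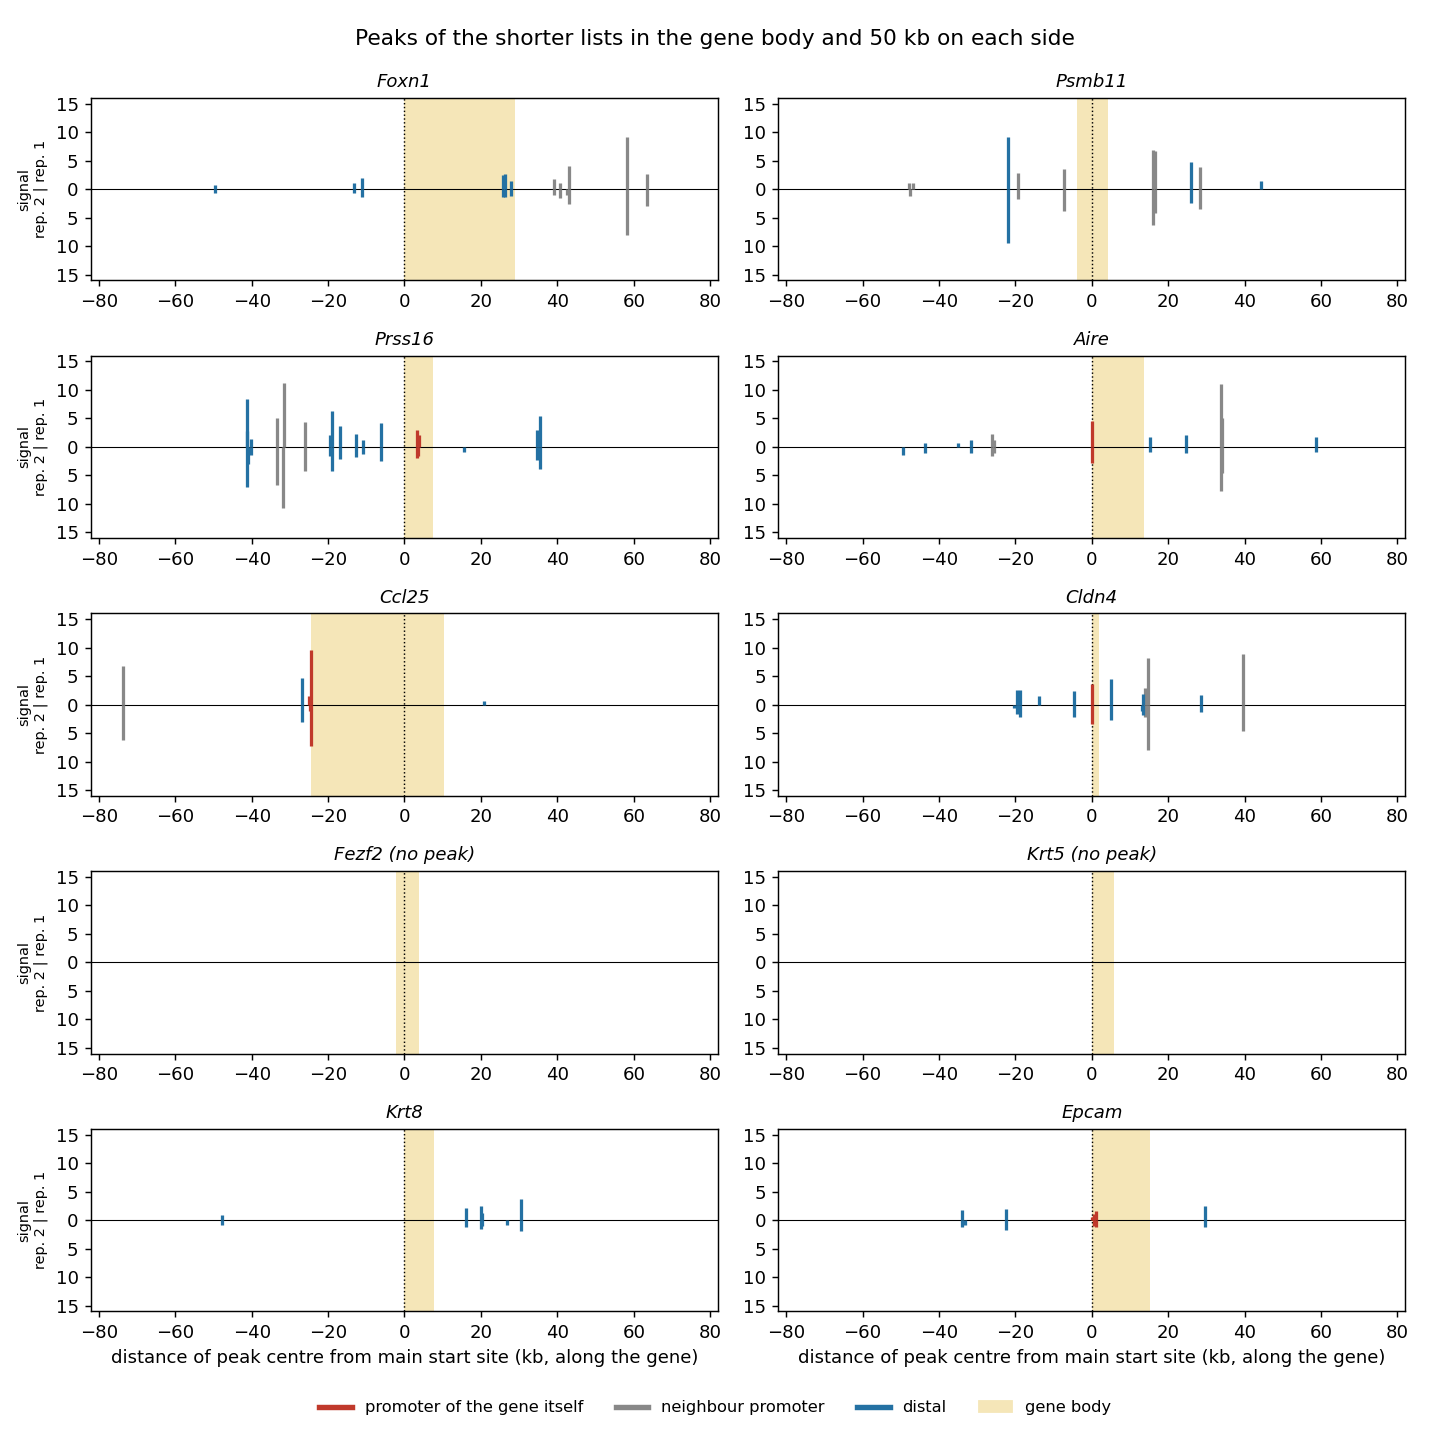
Peaks of the shorter lists around each of the 10 genes, by distance of the peak centre from the main start in kb along the gene (horizontal) and by signal (vertical; replicate 1 upward, replicate 2 downward). Red marks promoter peaks of the gene, grey promoter peaks of neighbours (not drawn for Epcam), blue distal peaks and yellow the gene body. Fezf2 and Krt5 have no peak, and the tallest bars in the windows of Foxn1, Prss16, Aire and Cldn4 are grey.

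The first genes belong to the cortical program and to the factor above it. Foxn1 encodes the transcription factor that drives thymic epithelial development. No peak of either list lay within 1 kb of its start in either library, no base there had a q-value below 0.05, and no footprint was called. The q-value is the deposited false discovery rate of a run of bases, and a footprint is a short protected stretch within accessible DNA. The Foxn1 window held 6 distal peaks in each library, 3 of them inside the gene near its 3′ end. The strongest shared one lay in an intron of Foxn1, 26.3 kb downstream of the start, with a signal of 2.63 in replicate 1 and 1.38 in replicate 2 (2.01 ± 0.882). Beside it, 25.9 kb downstream, another intronic peak had 2.44 and 1.38. The last of the 3, in an exon 28 kb downstream, had 1.43 and 1.14. Accessible DNA in Foxn1 was thus found at the far end of the gene, with a higher signal in replicate 1 at each of these sites. The distal peak nearest to the start was 11.1 kb upstream, in an exon of Slc13a2, a gene of a citrate and dicarboxylate transporter, with 2.01 and 1.36. For the strongest site, the closest start of another protein-coding gene was that of Unc119, 13.6 kb away. The tallest peak of the window was not at Foxn1 but at the start of Pigs, a gene of membrane anchor attachment, with 9.13 and 8.04. The strongest intronic site is printed because it is the main accessible sequence listed inside a gene whose own start had no listed peak. Here and in the sequences that follow (GRCm38, which is mm10), the strand is that of the gene and capitals mark bases inside footprints of both libraries. The bases printed and searched are those of the reference genome, and the CAST alleles of the hybrid mice were not examined.
Foxn1 intronic site, chr11:78360161-78360340, minus strand: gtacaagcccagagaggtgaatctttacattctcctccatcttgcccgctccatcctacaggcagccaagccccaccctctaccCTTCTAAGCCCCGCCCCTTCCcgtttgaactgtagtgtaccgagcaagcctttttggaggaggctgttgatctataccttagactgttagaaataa

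Psmb11 encodes the catalytic subunit that sets apart the proteasome of cortical epithelial cells, and it is a known target of the Foxn1 protein. Its start also had no peak in either list, no base below a q-value of 0.05 and no footprint within 1 kb in either library. Its window nevertheless held the strongest distal peak of all 10 genes, 21.8 kb upstream of the start. The signal there was 9.11 in replicate 1 and 9.45 in replicate 2 (9.28 ± 0.242), above 99.1% of all distal peaks in each library. Among the promoter peaks of the 10 genes themselves, only that of Ccl25 in replicate 1 was stronger. The site lay in an intron of 4931414P19Rik, 2.48 kb from the start of that gene, whose own promoter peak had 2.75 and 1.77. With a promoter window of 2500 bp it would count as a promoter site of 4931414P19Rik and no longer as distal. The other shared distal site lay 26 kb downstream in an intron of Acin1, with 4.69 and 2.44, within 1 kb of the start of the noncoding gene 4930579G18Rik. One further peak, 44.3 kb downstream, had 1.43 in replicate 1, and the longer list of replicate 2 had it at 1.08. The neighbouring Psmb5 gene encodes the subunit of the ordinary proteasome whose place Psmb11 takes. Its promoter, 7.28 kb upstream of the Psmb11 start, had 3.59 and 3.78, so that Psmb5 was accessible in both libraries while Psmb11 had no peak. The tallest neighbour promoter of the window was that of Cdh24, 16.1 kb downstream, with 6.91 and 6.29. The upstream site is printed as the strongest distal sequence of the set. It was 64.5% G and C, with 20 CpG dinucleotides in 220 bases.
Psmb11 upstream site, chr14:54603401-54603620, plus strand: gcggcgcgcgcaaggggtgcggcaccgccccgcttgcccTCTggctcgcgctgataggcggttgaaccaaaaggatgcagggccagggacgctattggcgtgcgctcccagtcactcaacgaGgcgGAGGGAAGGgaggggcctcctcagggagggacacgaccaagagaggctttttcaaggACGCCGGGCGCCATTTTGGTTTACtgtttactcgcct

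Prss16, which encodes a serine protease of cortical epithelium, had promoter peaks away from its main start. The main start had no peak in either list, no base below a q-value of 0.05 and no footprint within 1 kb. The promoter peaks lay at another annotated start, 3.26 kb downstream and inside the gene. The stronger of them had a signal of 2.88 in replicate 1 and 2.03 in replicate 2 (2.46 ± 0.602), and the weaker had 2.04 and 1.66. The stronger one was close to the median of all promoter peaks, which was 2.85 in replicate 1 and 2.52 in replicate 2. Upstream of the main start, the window ran into the histone gene cluster and held most of the distal peaks. There were 11 distal peaks in replicate 1 and 12 in replicate 2, the highest count of the set, and 95.9% of protein-coding genes had fewer. The strongest lay 41.3 kb upstream, in an exon of the noncoding gene Gm48356, with 8.38 and 7.10 (7.74 ± 0.91). The closest protein-coding start to it was that of Hist1h2bj, 7.87 kb away. The distal peak nearest to the main start was 6.11 kb upstream in an intron of the noncoding gene Gm11290, with 4.12 and 2.49. Other sites with over 3 in both libraries were those 19.1 kb upstream, with 6.38 and 4.21, and 35.4 kb downstream, with 5.41 and 3.91. Even so, the tallest peak of the window was the promoter of the histone gene Hist1h4i, with 11.2 and 10.7. The stretch at the internal start, without the 32 bases annotated as untranslated, and the strongest distal site are printed next. Which gene the distal site serves was not tested.
Prss16 internal start, chr13:22006413-22006580, minus strand: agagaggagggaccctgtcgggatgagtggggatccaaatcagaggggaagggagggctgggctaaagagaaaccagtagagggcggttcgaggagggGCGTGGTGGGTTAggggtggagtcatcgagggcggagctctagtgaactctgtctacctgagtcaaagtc
Prss16 upstream site, chr13:22050981-22051180, minus strand: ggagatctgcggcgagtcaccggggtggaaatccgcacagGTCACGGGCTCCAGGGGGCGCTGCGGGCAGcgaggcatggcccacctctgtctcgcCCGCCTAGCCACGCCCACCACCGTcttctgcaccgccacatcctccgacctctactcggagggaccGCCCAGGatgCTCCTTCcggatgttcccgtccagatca

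Ccl25 encodes the chemokine that attracts precursors bearing its receptor Ccr9 into the thymus. It had the highest promoter signal of the set, 9.64 in replicate 1 and 7.34 in replicate 2 (8.49 ± 1.62). This peak, however, was 24.4 kb upstream of the main start of Ccl25 and 73 bp from its other annotated start. It lay in an exon of Elavl1, a broadly expressed gene of an RNA-binding protein, 253 bp from the Elavl1 start. The annotation gives the peak to both genes, and which of them it serves cannot be told apart here. At the main start of Ccl25 there was no peak in either list, no base below a q-value of 0.05 and no footprint within 1 kb. The strongest distal peak of the window was likewise on the Elavl1 side, in an intron of that gene, 26.9 kb upstream of the main start of Ccl25 and 2.73 kb from the Elavl1 start. Its signal was 4.72 and 3.0 (3.86 ± 1.21). The only neighbour promoter peak of the window was that of Timm44, with 6.85 and 6.29. Downstream of Ccl25 there was 1 weak peak, 20.8 kb from the main start, with 0.671 in replicate 1, and the longer list of replicate 2 had it at 0.398. Ccl25 and Psmb11, both known targets of the Foxn1 protein, thus had no site at their main starts. In the shorter lists this also held for Foxn1, Prss16, Fezf2, Krt5 and Krt8. Of all protein-coding genes, 51.5% had a peak at the main start in both libraries. The sequence of the distal site is printed because its footprints cover a CTCF match, described further on. The promoter peak lies wholly in untranslated exon and is not printed.
Ccl25 upstream site, chr8:4322581-4322780, plus strand: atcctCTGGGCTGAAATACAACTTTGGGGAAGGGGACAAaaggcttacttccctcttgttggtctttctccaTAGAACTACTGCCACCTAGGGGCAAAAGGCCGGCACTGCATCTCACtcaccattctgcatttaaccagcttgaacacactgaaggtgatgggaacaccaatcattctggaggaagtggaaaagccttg

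Among the medullary genes, Aire encodes the regulator through which medullary epithelium transcribes antigens of other tissues. Its promoter peak was centred 10 bp from the main start in replicate 1 and 0 bp from it in replicate 2. The signal was 4.6 in replicate 1 and 2.92 in replicate 2 (3.76 ± 1.19), above the median of all promoter peaks in both libraries. Footprints within 1 kb of the start numbered 6 and 5. Aire was therefore the only gene of the cortical and medullary regulators Foxn1, Aire and Fezf2 with a peak at its start. The nearest start of another gene was that of Dnmt3l, 1.28 kb away. An enhancer that responds to NF-kB is known a short way upstream of Aire. No base from 1 to 10 kb on either side of the Aire start had a q-value below 0.05 in either library, and no distal peak of the shorter lists lay closer than 15.3 kb. That nearest site was downstream, between genes, with 1.69 and 0.868. The strongest shared distal site lay 24.6 kb downstream, also between genes and 9.13 kb from the start of Pfkl, with 2.01 and 1.0 (1.51 ± 0.713). There were 6 distal peaks in each library, with signals from 0.689 to 2.01 in replicate 1 and from 0.868 to 1.40 in replicate 2, so none reached the level of the promoter peak. The promoter of Pfkl, a gene of glycolysis, was the tallest of the window with 11 and 7.79, and that of Icosl, the ligand of a T cell costimulatory receptor, had 2.17 and 1.53. The upstream part of the Aire promoter peak, outside the untranslated exon, and the distal site are printed as the accessible sequences of this gene.
Aire promoter, upstream part, chr10:78043611-78043680, minus strand: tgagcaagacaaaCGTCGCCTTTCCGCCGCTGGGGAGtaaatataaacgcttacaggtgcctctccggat
Aire downstream site, chr10:78018861-78019020, minus strand: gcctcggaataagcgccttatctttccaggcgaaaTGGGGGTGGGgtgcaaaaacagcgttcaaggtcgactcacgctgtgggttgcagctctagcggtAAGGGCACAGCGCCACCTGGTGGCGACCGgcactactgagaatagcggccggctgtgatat

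Fezf2 encodes a transcription factor that also drives expression of other tissues' antigens in medullary epithelium. Neither shorter list had any peak in its window, of any class. The longer list of replicate 1 had a single one, 45.4 kb upstream in an intron of Cadps, with a signal of 0.295. Bases below a q-value of 0.05 came to 71 bp in replicate 1, with a lowest q-value of 0.0121, and to 0 bp in replicate 2, and no footprint was called. Next to no accessible DNA was thus listed around Fezf2. Its promoter is rich in CpG, with an observed over expected ratio of 0.744 against a median of 0.602 over 16522 genes. A window without any peak was shared by Krt5 and by 17.2% of all protein-coding genes.

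Cldn4 encodes a tight junction claudin that marks cells of the medullary lineage. Of the strongest promoter peaks, its own was the most even between the libraries, 3.58 in replicate 1 and 3.46 in replicate 2 (3.52 ± 0.0813), centred 26 bp and 6 bp from the start. The window held 8 distal peaks in each library, and 89.9% of genes had fewer. The strongest lay 4.91 kb downstream, in an exon of Mettl27, with 4.45 and 2.67 (3.56 ± 1.25). Cldn4 was the only gene of the set with a shared distal site within 5 kb of the main start, and it had another on the other side, 4.76 kb upstream, with 2.32 and 2.23. Nearer still, at 4.36 kb upstream, the longer list of replicate 1 alone had a peak of 0.761. Farther upstream, toward Cldn3, sites 18.8 kb and 19.5 kb away had 2.56 and 2.16, and 2.51 and 1.62. The promoter of Cldn3, a related claudin, had no peak in either library. The promoters of Mettl27, with 8.22 and 7.94, and of Tmem270, with 8.88 and 4.59, were the tallest of the window. The part of the Cldn4 promoter peak upstream of the gene is printed, and the distal site, which lies wholly in untranslated exon of Mettl27, is not.
Cldn4 promoter, upstream part, chr5:134946935-134947080, minus strand: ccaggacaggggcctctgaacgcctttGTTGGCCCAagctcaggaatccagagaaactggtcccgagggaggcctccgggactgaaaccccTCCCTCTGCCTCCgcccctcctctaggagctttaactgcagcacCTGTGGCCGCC

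Keratins are the filament proteins that tell epithelial compartments apart, with Krt5 in medullary cells and Krt8 mainly in cortical ones. The Krt5 window had no peak in either list of either library and no footprint. Its bases below a q-value of 0.05 came to 0 bp in replicate 1 and to 15 bp in replicate 2, with a lowest q-value of 0.0426. Krt8 had no promoter peak in the shorter lists, and the longer list of replicate 1 had a weak one, with 0.412, 93 bp from the start. Distal peaks of Krt8 numbered 5 and 6. The strongest lay 30.6 kb downstream between genes, 19.6 kb from the start of Krt78, with 3.71 and 1.88 (2.80 ± 1.3). The nearest of the shorter lists was 16.2 kb downstream, with 2.19 and 1.24, and the longer list of replicate 1 alone had one at 13.7 kb upstream, with 0.376. Of the shared distal peaks of Krt8, 4 lay downstream and 1 upstream, 47.7 kb away with 0.886 and 0.763. Krt18, whose protein pairs with that of Krt8 in filaments, had a promoter peak in the longer lists of both libraries, with 0.537 and 0.470. The keratin starts thus had weak sites or none, while a distal site of Krt8 was above 90.2% of all distal peaks in replicate 1 and 74.5% in replicate 2. That site is printed as the strongest of the keratin genes.
Krt8 downstream site, chr15:101973741-101973940, minus strand: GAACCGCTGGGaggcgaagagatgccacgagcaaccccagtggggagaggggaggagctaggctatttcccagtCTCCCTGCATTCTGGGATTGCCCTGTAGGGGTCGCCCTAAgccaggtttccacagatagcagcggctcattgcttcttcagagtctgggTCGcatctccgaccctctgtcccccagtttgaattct

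Epcam encodes an adhesion molecule on the surface of epithelial cells, used to sort them. Its promoter had low peaks only. The strongest lay in an intron 1.21 kb from the main start and 508 bp from the other annotated start, with 1.64 in replicate 1 and 1.14 in replicate 2 (1.39 ± 0.356). Another, 0.651 kb from the main start, had 1.08 and 1.04 (1.06 ± 0.0325). At the main start itself, replicate 1 had a peak of 0.528, and the longer list of replicate 2 had one of 0.457. All of these were below the median of all promoter peaks. Epcam also had no distal peak within 20 kb. Its strongest shared distal site by mean signal was 22.5 kb upstream, with 2.05 and 1.74 (1.89 ± 0.222), which was also the nearest to the main start. The site 29.6 kb downstream had 2.47 and 1.21. Both of these had a higher signal than the promoter in each library. The promoter site and the distal site are printed for comparison, the first with 18 CpG dinucleotides and the second with 8.
Epcam promoter site, chr17:87637081-87637300, plus strand: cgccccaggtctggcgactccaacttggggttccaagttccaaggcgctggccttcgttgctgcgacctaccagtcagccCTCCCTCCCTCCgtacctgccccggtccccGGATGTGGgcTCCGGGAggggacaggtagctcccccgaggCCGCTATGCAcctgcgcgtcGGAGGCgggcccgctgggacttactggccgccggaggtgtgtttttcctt
Epcam upstream site, chr17:87613421-87613620, plus strand: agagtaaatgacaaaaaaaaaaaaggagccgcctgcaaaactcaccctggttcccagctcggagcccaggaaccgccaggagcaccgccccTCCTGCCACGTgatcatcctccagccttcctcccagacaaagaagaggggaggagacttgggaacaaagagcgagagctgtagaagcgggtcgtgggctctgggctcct

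**Figure D2:**
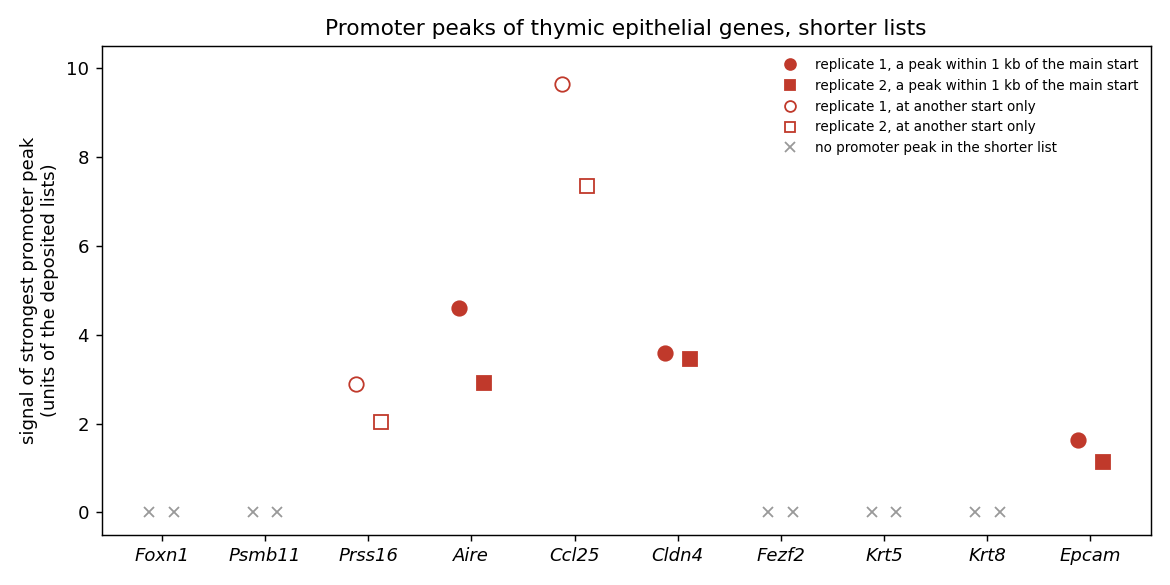
Signal of the strongest promoter peak of each gene (vertical, deposited units) in replicate 1 (circles) and replicate 2 (squares), filled where a peak lay within 1 kb of the main start and open where the only ones were at another start. Crosses mark genes without a promoter peak in the shorter list. Ccl25 is highest with 9.64 and 7.34, by an open symbol, and Foxn1, Psmb11, Fezf2, Krt5 and Krt8 have crosses in both libraries.

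How the start site was defined bore on the promoter count. With the main start alone, 3 genes had a promoter peak in both libraries, Aire, Cldn4 and Epcam, against 51.5% of all genes. With peaks left out that lay at the starts of more than 1 protein-coding gene, 4 genes remained, since Ccl25 shared its peak with Elavl1, against 43.6% of all genes. The base runs and footprints gave the same 5 genes as the peaks. A run with a q-value of 0.001 or lower within 1 kb of a start was present in both libraries for 5 genes, against 54.2% of all genes, and a footprint for 5, against 56.4%. In order of mean promoter signal the genes were Ccl25, Aire, Cldn4, Prss16 and Epcam. Between Aire, at 3.76 ± 1.19, and Cldn4, at 3.52 ± 0.0813, the difference was smaller than the spread of Aire over the libraries.

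The number of distal peaks differed widely among the genes. The median over the 10 was 4.5 per window, from 0 for Fezf2 and Krt5 to 11.5 for Prss16, against 2 over all protein-coding genes, with quartiles of 0.5 and 4.5. Because the genes were chosen with earlier results known, this difference describes the set only. Counts were 8 and 8 for Cldn4, 6 and 6 for Foxn1 and for Aire, 5 and 6 for Krt8, 3 and 4 for Epcam, 3 and 2 for Psmb11 and 2 and 1 for Ccl25 in replicates 1 and 2. The windows differ in gene length and in how many other genes they hold, and their part in these counts was not tested. With only the stronger 50% of peaks, the mean counts of Foxn1 and of Aire fell from 6 to 1.5. In all, the windows had 44 and 45 distal peaks (44.5 ± 0.707).

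**Figure D3:**
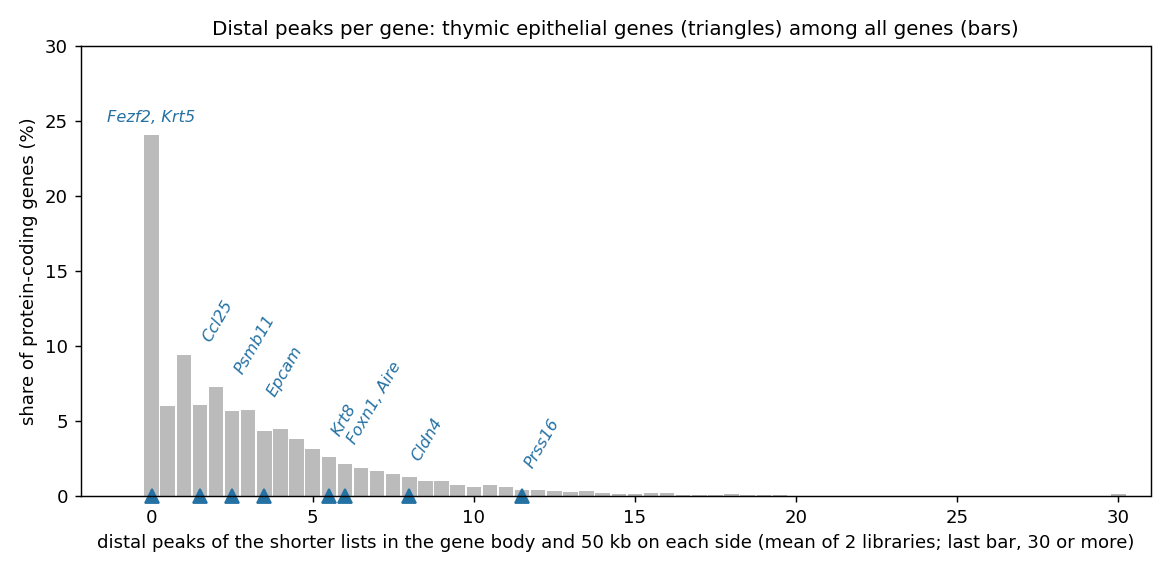
Share of all 21938 protein-coding genes in percent (vertical, grey bars) by the number of distal peaks in the gene body and 50 kb on each side, as the mean of the 2 libraries (horizontal), with triangles at the counts of the 10 genes. Prss16 is farthest right with 11.5, and Fezf2 and Krt5 stand at 0 with 24% of all genes.

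The distal sites were mostly the same in both libraries. Of the 44 in replicate 1, 39 overlapped a peak of replicate 2 by at least 1 bp, which is 88.6%, and of the 45 in replicate 2, 39 were found in replicate 1, which is 86.7%. Over all distal peaks of the libraries these shares were 74% and 75.5%. The median signal of the distal sites was 2.09 in replicate 1, with a range of 0.671 to 9.11, against 1.37 for all distal peaks. In replicate 2 it was 1.38, with a range of 0.568 to 9.45, against 1.15. The median site in these windows was thus above the median of all distal sites in each library, while 9 of the 44 sites in replicate 1 and 15 of the 45 in replicate 2 were below it. The Prss16 window alone gave 11 and 12 of these sites, and the medians without that window were not computed. Only 3 of the distal peaks in each library lay within 10 kb of a main start, those of Cldn4 and Prss16. Inside the genes themselves there were 3 in each library, all in Foxn1, while 19 and 17 lay in other genes and 22 and 25 between genes. A footprint was present in 42 of 44 (95.5%) and 44 of 45 (97.8%), against 91.8% and 89.8% of all distal peaks.

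Replicate 1 tended to have the higher signal at the distal sites. Among 39232 pairs of overlapping peaks, the median log2 ratio of replicate 1 over replicate 2 was 0.17, and it was subtracted from all ratios before the genes were compared. The 39 distal pairs of the epithelial genes then had a median log2 ratio of 0.30, from -0.65 to 0.85, and 30 of them (76.9%) were above the median of all pairs. Over all 22551 distal pairs the median was 0.03 and 51.7% were above. The 8 promoter pairs had a median of 0.20, with 6 above, and the 24 neighbour promoter pairs in the same windows had a median of -0.04, with 10 above. Over all 16681 promoter pairs the median was -0.02 and 47.7% were above. The median was thus above 0 for the genes' own and distal sites. For the promoters of their neighbours it was slightly below 0, near that of promoters in general. These differences were not tested. The lowest and highest of the 39 lay just outside the 5th and 95th percentiles of all pairs, -0.60 and 0.84. Sites of 1 window are neighbours in 1 library and are no replicates, and a cause was not tested. Sites that differed most were the Epcam site 29.6 kb downstream, with a ratio of 0.85, and the Aire site 24.6 kb downstream, with 0.83.

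**Figure D4:**
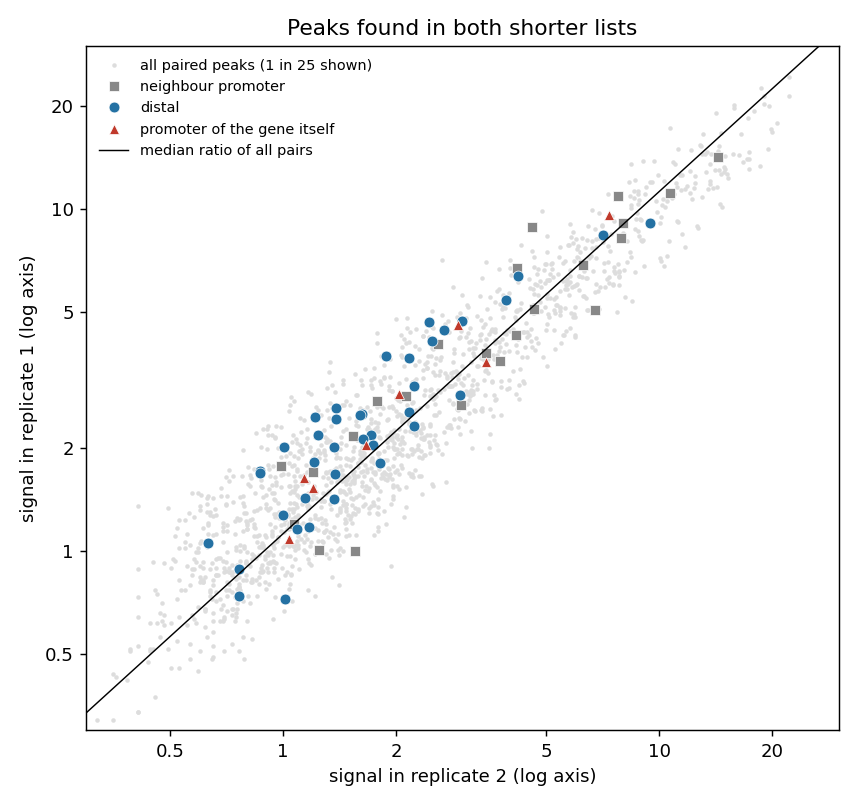
Signal in replicate 1 (vertical) against replicate 2 (horizontal), both on log axes, for peaks found in both shorter lists. Grey points are a sample of all pairs and the line is their median ratio. Of the 39 blue circles, the distal sites of the epithelial genes, 30 lie above the line, and of the 24 grey squares, the promoters of neighbours, 10 do.

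The sequences were searched on both strands for consensus motifs in windows of 300 bases centred on each peak. The sites searched were the strongest shared distal and promoter peak of each gene that had one. The shares given beside them are over all peaks of replicate 1, weak and unshared ones included, so the sets are unlike in strength. A match of the 12-letter CTCF consensus, that of a factor that organises chromatin loops, was in the distal sites of Aire, Ccl25 and Psmb11 and in the Aire promoter. Of all peaks, 15.8% of distal ones and 7.51% of promoter ones held this match in replicate 1. In the Aire site it read GCCACCTGGTGG, in the Ccl25 site GCCACCTAGGGG and in the Aire promoter CCAGCAGGGGGC, in a stretch that is not printed above. All 12 bases of each of these 3 lay inside footprints of both libraries, as can be seen for the first 2 from the capitals. This held for 59.2% of the distal and 37.3% of the promoter peaks with a match in replicate 1. In the Psmb11 site the match lay outside footprints. None of these matches overlapped a match of another motif.

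An AP-1 match (TGANTCA) was in 2 of 8 distal sites, those of Cldn4 and Krt8, and in 2 of 5 promoters, those of Prss16 and Cldn4. Of all peaks, 8.62% of distal and 3.76% of promoter ones held this match. In the Cldn4 site 4.91 kb downstream it read TGACTCA and lay wholly inside footprints of both libraries, while the other matches had no base in a footprint. In all distal peaks with a match, 1.35% had it in shared footprints. An SP and KLF match (GGGCGG), the letters of factors that bind many promoters, was in 4 of 8 distal sites and 3 of 5 promoters, against 17.1% of distal and 63.1% of promoter peaks. It lay wholly in shared footprints in the Foxn1 intronic site and the Cldn4 promoter, and outside or only partly inside them in the sites of Psmb11, Prss16 and Epcam. Of all peaks with a match, 31.7% of distal and 47.7% of promoter ones had it in shared footprints. The core of the Foxn1 protein's own site (GACGC) was in the Psmb11 distal site and in the Ccl25 and Epcam promoters, none of them wholly within shared footprints. That core is short, and 15.5% of distal and 47.9% of promoter peaks held it. No match was found in these 13 windows for RUNX (TGTGGT), for GRHL (AACCNGTT) or for p63. These were in 27.4%, 2.21% and 0.146% of all distal peaks and in 11.6%, 1.5% and 0.0708% of promoter ones. ETS matches were in 2 of 8 distal sites and 1 of 5 promoters, against 35.2% and 39%. GATA matches were in 2 of 8 distal sites, against 11.3%, and in no promoter. TCF and LEF matches were in 2 of 5 promoters and an E-box in 1 of 5, against 10.1% and 16%. Neither was in a distal site, against 20.3% and 24.9%. These letters are a description of the windows searched and not of bound factors.

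Promoter sequence differed among the genes as well. In the 300 bases around their start in RefSeq (GRCm38), the observed over expected CpG ratio ran from 0.0545 for Ccl25 through 0.165 for Psmb11, 0.238 for Krt8, 0.251 for Krt5, 0.272 for Foxn1, 0.324 for Cldn4, 0.454 for Epcam and 0.697 for Aire to 0.744 for Fezf2, and 9 of the 10 genes had an entry. Of these, 7 were below the median of 0.602. The order of the ratios was not the order of the promoter signals, since Fezf2 had the highest ratio and no peak, and Cldn4 had a peak of 3.52 ± 0.0813 with a ratio below the median. The ratio of Ccl25 is that of its main start, where it had no peak. Its promoter peak lay 24.4 kb upstream at the other start, in a sequence with 28 CpG dinucleotides in 200 bases.

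Beyond the 10 genes, 39 other genes of thymic epithelium were examined in the same way. A promoter peak in both libraries was present for 15 of them (38.5%), against 53.4% of all protein-coding genes. By role, these were 7 of 15 cortical and shared genes, 6 of 18 medullary genes and 2 of 6 epithelial transcription and adhesion factors. Dll4, the Notch ligand of cortical epithelium, had no promoter peak, nor had Trp63 and Krt14, markers of basal epithelium. The highest signals of this list were at 4 genes, and which cells of the whole thymus gave them was not tested. Map3k14, a kinase of NF-kB signalling, had 16.8 and 21.7, and Relb, its downstream factor, had 10.4 and 14.6. The endocytic receptor gene Ly75 had 7.35 and 6.44, and the protease gene Ctsl had 6.87 and 6.41. The epithelial factor gene Elf3 and the adhesion gene Cdh1 had 1.59 and 0.985, and 1.05 and 1.06, which were below the median of all promoter peaks.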

How the data were processed

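DNase-seq of thymus tissue was analysed from files made per library, without pooling, per the file notes on mm10. The authors deposited 2 peak lists with a signal value per peak, base runs with q-values up to 0.0499, and footprints that all carry a q-value of 0.01. No source used here names the peak caller or the aligner or states the depth. All signals were whole multiples of 1 step per library (0.00895 and 0.00652, tolerance 0.1), so log2 ratios were centred on the median of all pairs. Genes and start sites came from the GENCODE M21 basic annotation, main starts being those of the principal transcripts, and sequence from GRCm38, whose chromosomes hold all peaks. Coordinates count from 1. An overlap of 1 bp or more made a peak shared. Values were computed with pandas 2.3.3 and numpy 2.4.6, in Python 3.11.15, and the overlap and distance functions were tested on simulated data. For each gene with distal peaks in the shorter lists, the strongest shared one and the one nearest the main start were named. The tallest neighbour promoter was named where there was one, except for Epcam. Others were given as counts or chosen after their values were seen. Some neighbour results are not reported here. The genes and lists were chosen with earlier results of these data known. The 14 motifs also held ETS (CNGGAAG), TCF and LEF (CTTTGA), E-box (CAGCTG), the GATA factors (with AGATAA), IRF, STAT (TTCNNNGAA) and NF-kB. Printed sequences leave out stretches of annotated untranslated exon above 30 bases.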

Additional observations from a re-analysis of the deposited data

How the results depend on the processing

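With 2 libraries of 1 group, of unknown depth and perhaps of 1 animal, absence of a peak means that none was listed, not that the DNA was closed. No paired analysis was possible because there is only 1 group. The share of distal peaks found in the other library was 87.7% as reported, 83.0% with the longer lists, 82.3% with the stronger 50% of peaks and 74.2% with an overlap of at least 50% of both peaks. The distal count of 44.5 became 25.5 with the stronger 50% of peaks and 82 with flanks of 100 kb, and the footprint count of 352.5 became 694 with those flanks. A promoter peak in both libraries was present for 3 genes at the main start only, an alternative added after seeing the data. The other 39 values of the summary counts stayed within the spread between libraries or within 1.5 times, and with either library left out 5 genes had a promoter peak and 8 had a distal peak. The distal counts of single genes moved more in 19 of 100 values. With the stronger 50% of peaks, Foxn1 and Aire each fell from 6 to 1.5, Krt8 from 5.5 to 2.5 and Epcam from 3.5 to 2. With the longer lists Epcam rose to 7 and Psmb11 from 2.5 to 4.5. Psmb11 ranged from 0.5 (promoter window of 2500 bp) to 8.5 (flanks of 100 kb). With the promoter window of 2500 bp, 7 genes had a distal peak in both libraries.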
